A study of Mus musculus with 12 samples.

Results

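Collagen is made fit for assembly by a small set of enzymes and one chaperone, and 10 genes of this set were read here in mouse pre-osteoblasts. They are the catalytic subunits of prolyl 4-hydroxylase (P4ha1, P4ha2 and P4ha3), the lysyl hydroxylases (Plod1, Plod2 and Plod3), the lysyl oxidases Lox, Loxl1 and Loxl2, and Serpinh1, which encodes the collagen chaperone HSP47. The members were taken by gene symbol from a table of 39032 genes in which all 10 are present. Of these, 9 reached at least 1 FPKM (fragments scaled to transcript length and to the mapped fragments) in at least 3 of the 12 libraries and were tested with 11548 genes in all. Loxl2 did not reach that level and is described without a test.

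The cells were MC3T3-E1 subclone 14, a mouse calvarial line of wild-type genotype that differentiates toward osteoblasts, kept in osteogenic medium with an ascorbic acid salt and β-glycerophosphate. For 5 days they received BMP2 and RSPO2 together (BMP2+RSPO2), BMP2 at 100 ng/ml (BMP2), RSPO2 at 200 ng/ml (RSPO2) or vehicle (Control), with 3 independent biological replicates per arm. BMP2 is a bone morphogenetic protein that signals through SMAD proteins, and RSPO2 (R-spondin 2) amplifies Wnt signalling. The line is 1 subclone, so the replicates are cultures of the same cells. The design asked which transcriptional programmes each protein regulates alone and together.

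Prolyl 4-hydroxylases hydroxylate prolines of procollagen in the endoplasmic reticulum, which keeps the triple helix stable at body temperature, and lysyl hydroxylases modify lysines that later carry sugars and crosslinks. Outside the cell, lysyl oxidases turn lysines and hydroxylysines into reactive aldehydes, and these form the covalent crosslinks of collagen and elastin. All hydroxylases of this set need ascorbate, iron and oxygen, lysyl oxidases need copper, and several of these genes are known targets of the hypoxia-inducible factor HIF in other cells.

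The libraries differed in ways that touch these genes. The osteoblast markers Runx2, Sp7, Alpl, Ibsp, Col1a1, Col1a2, Spp1 and Sparc were present in every library. Their summed FPKM ranged over 20885 to 39254 in BMP2+RSPO2, 19136 to 28439 in BMP2, 9568 to 13968 in RSPO2 and 10356 to 16538 in Control. Summed markers of adipocytes reached at most 0.39 FPKM. Those of macrophages reached at most 4.35 FPKM in BMP2+RSPO2, 2.08 in BMP2, 1.29 in RSPO2 and 1.41 in Control. Those of endothelium reached at most 5.35 FPKM in BMP2+RSPO2, 0.9 in BMP2, 0.07 in RSPO2 and 0.18 in Control. The lowest sums in BMP2+RSPO2 were 1.36 FPKM for macrophages and 0.02 FPKM for endothelium. The cartilage genes Acan, Col9a1 and Matn1 were listed at 0 throughout. The 6 cartilage markers summed to 13.9 to 21.2 FPKM in BMP2+RSPO2, 22.5 to 44.4 in BMP2, 4.05 to 4.68 in RSPO2 and 7.21 to 12.5 in Control. The 5 skeletal muscle markers, with nearly all of the signal in Tnnc2, summed to 0 to 1.01 FPKM in BMP2+RSPO2, 2.12 to 3.29 in BMP2, 51.9 to 83.5 in RSPO2 and 23.3 to 43.5 in Control. Of the 6 smooth muscle markers, Cnn1 and Myh11 stayed near 0, and the summed list ranged over 295 to 323 FPKM in BMP2+RSPO2, 703 to 756 in BMP2, 1160 to 1668 in RSPO2 and 1256 to 1555 in Control. The part of these lists in the members' values was not tested. BMP2+RSPO2 replicate 1 stood apart: its 10 most abundant genes held 57.8% of the summed FPKM, against 11.4% to 19.8% in the other 11 libraries. Cell cycle genes set the first replicates apart, with a centred median log2 level of 0.39 in BMP2+RSPO2 replicate 1, 1.15 in BMP2 replicate 1, 1.36 in RSPO2 replicate 1 and 1.40 in Control replicate 1, and of -1.02 to 0.11 in the other 8 libraries. With all 12 libraries limma called 0 of these 21 genes in each of the 7 comparisons, whereas from replicates 2 and 3 alone it called 19 of them, all lower, in BMP2+RSPO2 against Control and 20, all higher, in BMP2 against Control. The part of these genes in the members' values was not tested. In bulk RNA, fewer cells of a type and less RNA per cell cannot be told apart.

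On the FPKM scale, which allows genes to be set side by side, the 10 genes spanned a wide range of levels. Serpinh1 averaged 1279 FPKM over the 12 libraries, Lox 224 FPKM and P4ha1 92.2 FPKM, whereas Loxl1 averaged 5.14 FPKM and Loxl2 0.313 FPKM. P4ha2, P4ha3, Plod3 and Plod2 lay between 21.0 and 31.5 FPKM, and Plod1 was at 11.9 FPKM. The chaperone and the oxidase Lox were thus among the most abundant tested transcripts, above 99.7% and 98.2% of them.

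**Figure D1:**
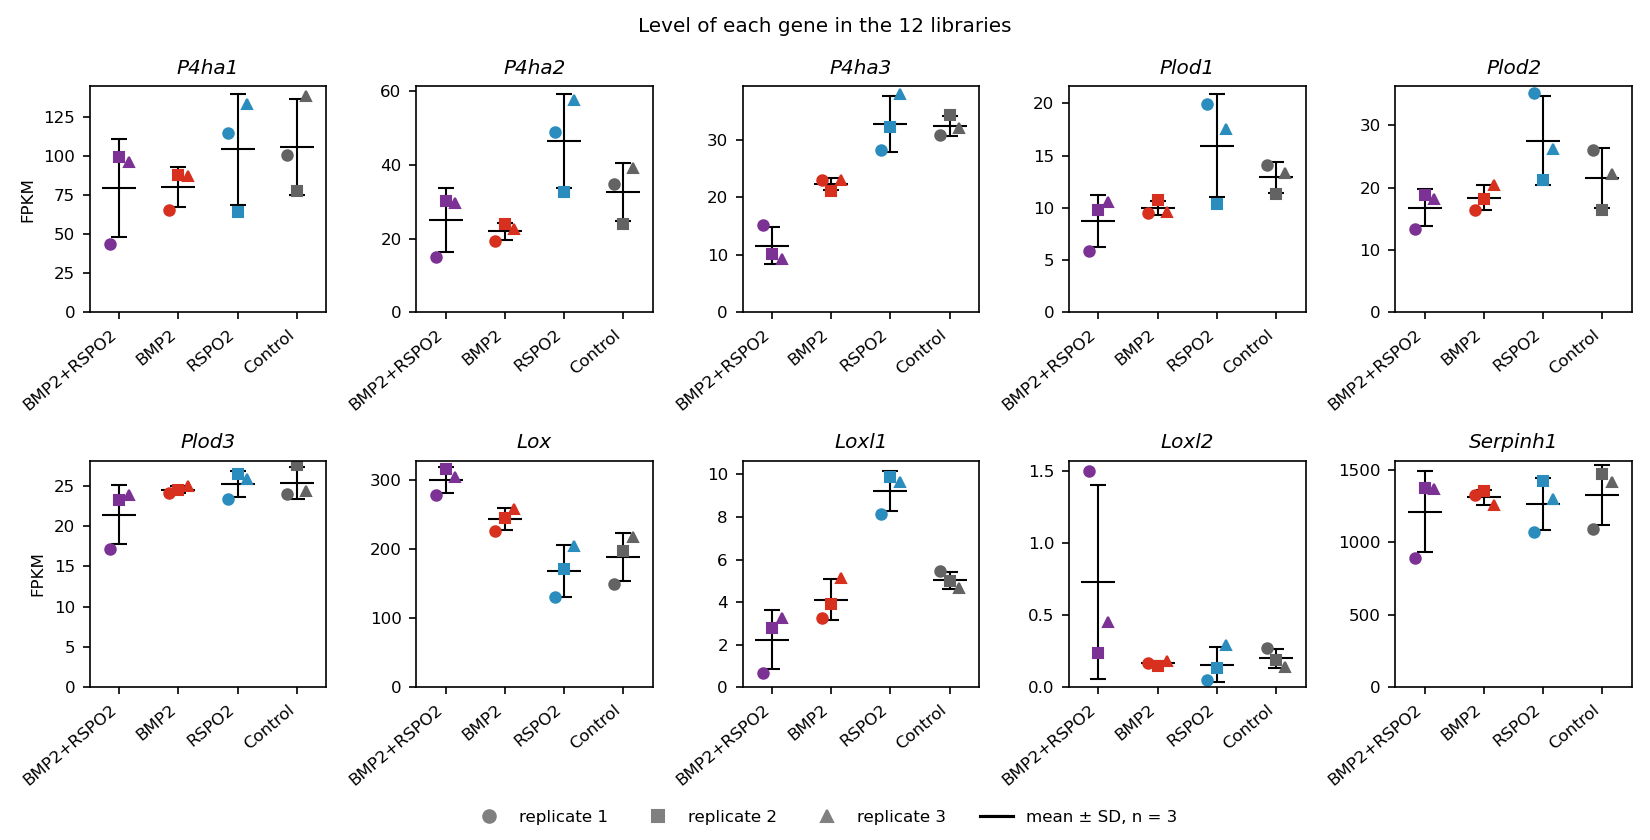
FPKM (vertical axis, from 0, each panel with its own scale) of the 10 genes in the 12 libraries. Points are libraries, with the replicate number as the symbol, and the bars are the mean and SD of the 3 libraries of an arm; P4ha3 and Loxl1 are lowest and Lox is highest in BMP2+RSPO2.

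Among the prolyl 4-hydroxylases, P4ha3 was the member that differed between arms with the least overlap. P4ha3 encodes the third catalytic α subunit and had 15.3, 10.1 and 9.32 FPKM in BMP2+RSPO2, 23.0, 21.2 and 23.0 FPKM in BMP2, 28.2, 32.2 and 37.9 FPKM in RSPO2, and 30.9, 34.3 and 32.1 FPKM in Control. Every BMP2+RSPO2 library lay below every BMP2 library, and every BMP2 library lay below all RSPO2 and Control libraries. RSPO2 and Control overlapped. The arm means were 11.6 ± 3.22 FPKM in BMP2+RSPO2, 22.4 ± 1.04 in BMP2, 32.7 ± 4.87 in RSPO2 and 32.4 ± 1.74 in Control (SD, n = 3 each).

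P4ha3 fell in BMP2+RSPO2 against Control by 1.44 on the log2(FPKM + 1) scale (SE 0.17, limma adjusted p = 0.000422). It also fell in BMP2+RSPO2 against RSPO2 (log2 change -1.45, SE 0.17, limma adjusted p = 0.000278) and in BMP2+RSPO2 against BMP2 (-0.93, SE 0.17, limma adjusted p = 0.020). Without BMP2+RSPO2 replicate 1, in which P4ha3 was highest of its arm, these log2 changes were -1.64, -1.65 and -1.13, and all remained called. The call against BMP2 ended after quantile normalization (limma adjusted p = 0.0807) and after median-of-ratios scaling (0.0822), as well as without any of the 3 BMP2 libraries or BMP2+RSPO2 replicate 2. It also ended with only the 2 arms compared. BMP2 against Control gave a log2 change of -0.51 (SE 0.17, limma adjusted p = 0.240), which passed without BMP2+RSPO2 replicate 1 (limma adjusted p = 0.0351). RSPO2 against Control gave 0.01, with a 95% interval of -0.36 to 0.38. The effect of RSPO2 with BMP2 present minus that without BMP2, the interaction, was -0.93 for P4ha3 (SE 0.24, limma adjusted p = 0.143), and it passed at -1.13 without BMP2+RSPO2 replicate 1 (limma adjusted p = 0.0176).

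P4ha1, the most abundant catalytic subunit here, showed a wide spread within arms. It had 43.4, 98.9 and 96.1 FPKM in BMP2+RSPO2, 65.4, 87.4 and 87.0 FPKM in BMP2, 114.7, 64.2 and 133.1 FPKM in RSPO2, and 100.7, 77.5 and 138.4 FPKM in Control. All 4 arms overlapped, and none of the comparisons called P4ha1. Its log2 change in BMP2+RSPO2 against Control was -0.46, with a 95% interval of -1.25 to 0.34, and it was -0.07 without BMP2+RSPO2 replicate 1 and -0.18 after median-of-ratios scaling.

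P4ha2, an α subunit that forms a separate enzyme with the same β subunit as P4ha1, had 15.0, 30.3 and 29.7 FPKM in BMP2+RSPO2 and 19.5, 23.9 and 22.7 FPKM in BMP2. It had 49.0, 32.7 and 57.8 FPKM in RSPO2, and 34.7, 23.9 and 39.2 FPKM in Control. Every BMP2+RSPO2 library lay below every RSPO2 library, and every BMP2 library lay below every Control library, with the nearest pair at 23.86 FPKM in BMP2 and 23.94 FPKM in Control. After median-of-ratios scaling, BMP2+RSPO2 overlapped RSPO2, and BMP2 overlapped Control. P4ha2 fell in BMP2+RSPO2 against RSPO2 (log2 change -0.90, SE 0.29, limma adjusted p = 0.0448), a call that ended under both scalings and in 8 of the 12 fits without 1 library. Without BMP2+RSPO2 replicate 1 the change was -0.58. In RSPO2 against Control its log2 change was 0.49 (95% interval -0.16 to 1.13), which did not pass the test.

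In the composition of this family, only the share of P4ha2 in RSPO2 stood clear of all other arms, and no test was made. P4ha2 made up 20.3% to 22.0% of the summed FPKM of the 3 genes in BMP2+RSPO2, against 17.1% to 18.0% in BMP2, and 25.3% to 25.5% in RSPO2, against 17.6% to 20.9% in Control. Both BMP2-treated arms overlapped Control in this share. P4ha1 held the largest share in every arm, with a mean of 67.0 ± 7.00% in BMP2+RSPO2, 64.1 ± 2.96% in BMP2, 55.9 ± 5.39% in RSPO2 and 61.2 ± 4.50% in Control. P4ha3 held 6.90% to 20.7% in BMP2+RSPO2, where replicate 1 is the high library, and 15.3% to 25.3% in Control.

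The windows of 250 bases before the RefSeq start of 3 of these genes are shown because the prolyl 4-hydroxylase family holds both P4ha3, called in all 3 comparisons of BMP2+RSPO2 with another arm, and P4ha1, called in none. Capitals mark every match to the HIF core letters ACGTG or GCGTG on either strand (CACGT or CACGC where read on the other strand), and sequences run 5′ to 3′ on the gene's strand, from RefSeq in build GRCm38.p6.
P4ha1, chr10:59323046-59323295, plus strand: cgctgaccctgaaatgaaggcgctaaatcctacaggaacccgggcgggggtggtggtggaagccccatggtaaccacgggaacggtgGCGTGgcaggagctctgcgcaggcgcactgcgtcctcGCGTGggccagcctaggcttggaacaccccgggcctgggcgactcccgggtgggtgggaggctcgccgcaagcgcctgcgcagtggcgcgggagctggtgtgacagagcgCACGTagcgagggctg
P4ha2, chr11:54100674-54100923, plus strand: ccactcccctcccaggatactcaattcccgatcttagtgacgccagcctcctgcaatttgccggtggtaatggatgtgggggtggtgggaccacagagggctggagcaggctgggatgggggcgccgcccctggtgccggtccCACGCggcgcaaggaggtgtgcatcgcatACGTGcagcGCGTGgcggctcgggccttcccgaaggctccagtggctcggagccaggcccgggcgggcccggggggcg
P4ha3, chr7:100285270-100285519, plus strand: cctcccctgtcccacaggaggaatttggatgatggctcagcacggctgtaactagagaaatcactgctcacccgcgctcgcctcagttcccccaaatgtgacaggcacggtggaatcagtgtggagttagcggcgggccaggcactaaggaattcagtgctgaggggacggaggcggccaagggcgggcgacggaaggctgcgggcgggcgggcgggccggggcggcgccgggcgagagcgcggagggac
P4ha1 and P4ha2 each hold 3 such matches, the nearest 16 and 69 bases before the start. P4ha3 holds 0 of these letters in this window. Of the 32851 RefSeq promoter windows of that length, 38.6% hold at least 1 match, so the letters are common. Among the 10 genes, 6 were matched by symbol to the promoter table, and the 5 other than P4ha3 (P4ha1, P4ha2, Plod1, Plod3 and Serpinh1) hold the letters. The 6 windows are rich in G and C, at 55.6% (Plod3) to 70.0% (P4ha2), against a median of 52.4% over all windows. Both HIF core words hold CG, and the shares over all windows given here were not matched for GC content. Plod3 holds the most, with 4 matches, and Plod1 and Serpinh1 hold 1 each. Plod2, Lox, Loxl1 and Loxl2 were not matched. The letters GGCGCC, a GC-rich SMAD element that reads the same on both strands, are in the windows of P4ha2 and P4ha3 and in 9.59% of all windows. A RUNX core (TGTGGT or TGCGGT) was found in P4ha2 alone of the 6 and in 18.6% of all windows, and the TCF/LEF letters CTTTGA in Plod3 alone and in 13.8% of all windows. These are matches of letters in the reference, and binding was not measured.

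Of the lysyl hydroxylases, Plod1 and Plod2 were lower in BMP2+RSPO2 than in RSPO2, and Plod3 was not called in any comparison. Plod1 hydroxylates lysines of the helical part of collagen and had 5.91, 9.78 and 10.6 FPKM in BMP2+RSPO2, 9.52, 10.7 and 9.64 FPKM in BMP2, 19.9, 10.4 and 17.5 FPKM in RSPO2, and 14.1, 11.3 and 13.4 FPKM in Control. RSPO2 replicate 2 was the low library of its arm and overlapped both BMP2-treated arms, whereas every library of those 2 arms lay below every Control library. After median-of-ratios scaling, those 2 arms overlapped Control. In BMP2+RSPO2 against Control the log2 change of Plod1 was -0.54 (95% interval -1.07 to -0.01, limma adjusted p = 0.123), which was -0.31 without BMP2+RSPO2 replicate 1 and -0.29 after median-of-ratios scaling, and in BMP2 against Control -0.34 (95% interval -0.87 to 0.19). Plod1 fell in BMP2+RSPO2 against RSPO2 (log2 change -0.79, SE 0.24, limma adjusted p = 0.0358). That call ended under both scalings, with a change of -0.52 after median-of-ratios scaling, and in 6 of the 12 fits without 1 library, with -0.55 without BMP2+RSPO2 replicate 1.

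Plod2, the lysyl hydroxylase of the collagen telopeptides, whose product directs hydroxylysine-derived crosslinks, had 13.3, 18.8 and 18.2 FPKM in BMP2+RSPO2 and 16.5, 18.1 and 20.4 FPKM in BMP2. It had 35.2, 21.2 and 26.2 FPKM in RSPO2, and 26.0, 16.5 and 22.2 FPKM in Control. Every library of both BMP2-treated arms lay below every RSPO2 library, while Control overlapped all of them. After median-of-ratios scaling, both BMP2-treated arms overlapped RSPO2. Plod2 fell in BMP2+RSPO2 against RSPO2 (log2 change -0.67, SE 0.21, limma adjusted p = 0.0419), and the call ended under both scalings and in 9 of the 12 fits without 1 library. The change was -0.39 after median-of-ratios scaling and -0.52 without BMP2+RSPO2 replicate 1.

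Plod3, which also transfers glucose onto hydroxylysine that carries galactose, had 17.2, 23.3 and 23.8 FPKM in BMP2+RSPO2, 24.2, 24.5 and 25.0 FPKM in BMP2, 23.4, 26.4 and 25.9 FPKM in RSPO2, and 24.0, 27.6 and 24.4 FPKM in Control. Its log2 change in BMP2+RSPO2 against Control was -0.24, with a 95% interval of -0.52 to 0.04, on the deposited scale. Median-of-ratios scaling put that change at 0.03, and it was -0.10 without BMP2+RSPO2 replicate 1. Within the sum of the 3 lysyl hydroxylases, Plod3 held 45.8 ± 1.24% in BMP2+RSPO2, 46.5 ± 1.49% in BMP2, 37.5 ± 7.87% in RSPO2 and 42.6 ± 6.47% in Control (SD, n = 3 each), and the ranges overlapped.

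The lysyl oxidases Lox and Loxl1 differed between arms in opposite directions. Lox, the main oxidase of collagen crosslinking, had 278.1, 314.7 and 304.1 FPKM in BMP2+RSPO2, 226.0, 244.4 and 257.3 FPKM in BMP2, 129.6, 170.3 and 204.3 FPKM in RSPO2, and 149.4, 196.3 and 217.0 FPKM in Control. Every BMP2+RSPO2 library lay above every BMP2 library, and every BMP2 library lay above all RSPO2 and Control libraries, which overlapped each other. After median-of-ratios scaling, BMP2 and Control overlapped, with 211.1 FPKM lowest in BMP2 and 211.6 FPKM highest in Control. Lox rose in BMP2+RSPO2 against Control (log2 change 0.69, SE 0.18, limma adjusted p = 0.0210) and against RSPO2 (0.85, SE 0.18, limma adjusted p = 0.00718). After median-of-ratios scaling these changes were 0.97 and 1.14, and both were called. The call against Control ended without Control replicate 1 or BMP2+RSPO2 replicate 2 (limma adjusted p up to 0.0783), and with only the 2 arms compared. The call against RSPO2 was made without each library in turn. BMP2 against Control gave 0.38 (95% interval -0.01 to 0.78) and BMP2+RSPO2 against BMP2 gave 0.30 (95% interval -0.10 to 0.70; 0.51 after median-of-ratios scaling), neither of which passed. The interaction of Lox was 0.46 (SE 0.25, limma adjusted p = 0.454), and 0.52 without BMP2+RSPO2 replicate 1.

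Loxl1, an oxidase known for elastic fibre assembly, had 0.65, 2.79 and 3.24 FPKM in BMP2+RSPO2, 3.25, 3.90 and 5.15 FPKM in BMP2, 8.13, 9.89 and 9.64 FPKM in RSPO2, and 5.45, 4.97 and 4.64 FPKM in Control. All RSPO2 libraries were above all others, and all BMP2+RSPO2 libraries were below all others, though by 0.01 FPKM for the nearest BMP2 library. After median-of-ratios scaling, BMP2+RSPO2 and BMP2 overlapped. BMP2 and Control overlapped. Loxl1 fell in BMP2+RSPO2 against RSPO2 (log2 change -1.77, SE 0.30, limma adjusted p = 0.00230), a call made under both scalings and without each library in turn. Without BMP2+RSPO2 replicate 1 that change was -1.35.

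Against Control, Loxl1 fell in BMP2+RSPO2 (log2 change -1.01, SE 0.30, limma adjusted p = 0.0343), and the change was -0.58 without BMP2+RSPO2 replicate 1. This call ended under both scalings (limma adjusted p = 0.0982 after quantile normalization and 0.102 after median-of-ratios scaling), with a pseudocount of 0.1, without the filter on low values, and without any of the 3 Control libraries or BMP2 replicate 2. It also ended with only the 2 arms compared. In RSPO2 against Control, Loxl1 changed by 0.76 (95% interval 0.10 to 1.42, unadjusted p = 0.0283, limma adjusted p over 11548 genes 1.00), which is not a call. BMP2+RSPO2 against BMP2 gave -0.76 (SE 0.30, limma adjusted p = 0.149), which was not called either. The effect of RSPO2 on Loxl1 in the presence of BMP2 minus that without BMP2 was -1.52 (SE 0.42, limma adjusted p = 0.183), which did not pass. It passed without BMP2+RSPO2 replicate 1 at -1.09 (limma adjusted p = 0.0419).

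Loxl2, an oxidase that crosslinks type IV collagen, was at or near the bottom of the measured range. It had 1.5, 0.24 and 0.45 FPKM in BMP2+RSPO2, 0.17, 0.15 and 0.18 FPKM in BMP2, 0.05, 0.13 and 0.29 FPKM in RSPO2, and 0.27, 0.19 and 0.14 FPKM in Control. The single value above 1 FPKM is that of BMP2+RSPO2 replicate 1, the library that stood apart. Lox held 99.0 ± 0.217% of the summed FPKM of these 3 oxidases in BMP2+RSPO2, 98.3 ± 0.280% in BMP2, 94.6 ± 0.669% in RSPO2 and 97.2 ± 0.794% in Control. That sum leaves out Loxl3 and Loxl4, which averaged 20.9 and 88.3 FPKM in BMP2+RSPO2, so it is not the share of Lox in all lysyl oxidases.

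Because both genes are read in the same library, the ratio of Lox to Loxl1 does not change when a library is scaled by a single factor. Quantile normalization is not such a scaling. The ratio was 427.9, 112.8 and 93.8 in BMP2+RSPO2, 69.5, 62.7 and 50.0 in BMP2, 15.9, 17.2 and 21.2 in RSPO2, and 27.4, 39.5 and 46.8 in Control. The 4 arms did not overlap, and their order from low to high was RSPO2, Control, BMP2 and BMP2+RSPO2. The high value of BMP2+RSPO2 replicate 1 has the Loxl1 level of 0.65 FPKM in its denominator. The ratio of P4ha2 to P4ha1 was 0.345, 0.306 and 0.309 in BMP2+RSPO2, against 0.298, 0.273 and 0.261 in BMP2, and 0.427, 0.509 and 0.434 in RSPO2, against 0.345, 0.309 and 0.283 in Control. Each arm with RSPO2 thus lay above its partner without RSPO2. Both ratios were chosen after their values were seen and carry no test.

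**Figure D2:**
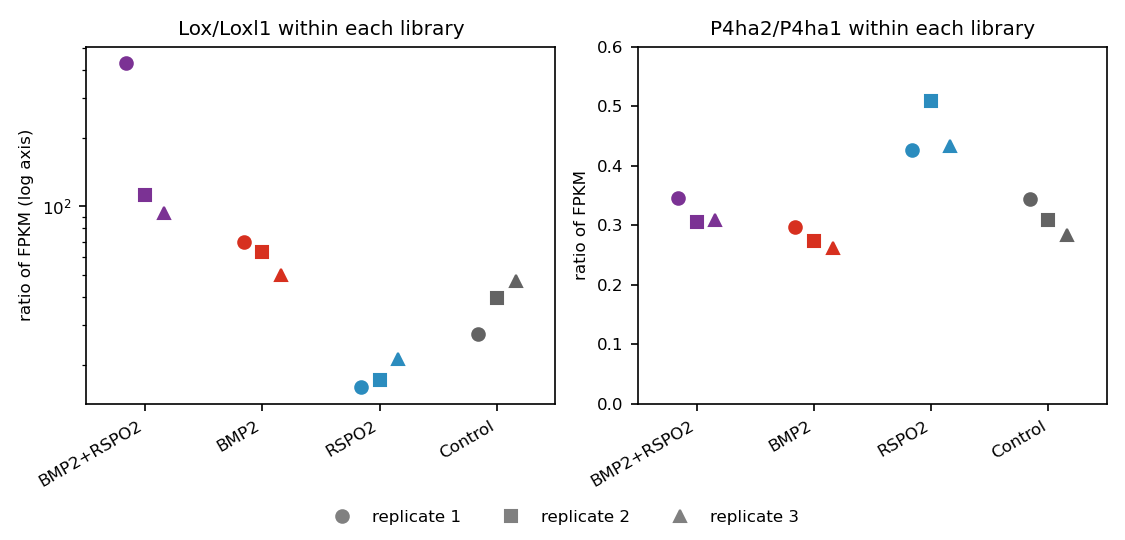
Ratio of Lox to Loxl1 (left, log axis) and of P4ha2 to P4ha1 (right, linear axis from 0) within each of the 12 libraries, with the replicate number as the symbol. The Lox to Loxl1 ratio lies at 93.8 or more in BMP2+RSPO2 and at 21.2 or less in RSPO2, and the P4ha2 to P4ha1 ratio is highest in RSPO2.

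Serpinh1, which binds folded procollagen and escorts it out of the endoplasmic reticulum, was not called in any comparison. It had 891.8, 1376.8 and 1371.3 FPKM in BMP2+RSPO2, 1326.8, 1354.9 and 1255.6 FPKM in BMP2, 1071.8, 1421.0 and 1300.1 FPKM in RSPO2, and 1093.4, 1473.2 and 1415.9 FPKM in Control. All arms overlapped. Its log2 change in BMP2+RSPO2 against Control was -0.15, with a 95% interval of -0.58 to 0.29, and it turned to 0.14 after median-of-ratios scaling and to 0.06 without BMP2+RSPO2 replicate 1.

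Counted by comparison, limma called 3 of the 9 tested members in BMP2+RSPO2 against Control (Lox higher, P4ha3 and Loxl1 lower), where 23.0% of all tested genes were called, 3.65% higher and 19.4% lower. It called 6 in BMP2+RSPO2 against RSPO2 (Lox higher, and P4ha2, P4ha3, Plod1, Plod2 and Loxl1 lower), where 26.1% of all genes were called, 4.32% higher and 21.8% lower. It called 1 in BMP2+RSPO2 against BMP2 (P4ha3, lower), where 4.38% of all genes were called and 3.74% were lower. The counts were 0 in BMP2 against Control (all genes 1.52%), 0 in RSPO2 against Control (all genes 0.0779%) and 0 for the interaction (all genes 0.294%). At an unadjusted p under 0.05, 1147 of the 11548 genes passed in BMP2 against Control, 418 in RSPO2 against Control and 1504 for the interaction. The share of members called against Control was near that of all genes, and the larger count against RSPO2 was 3 (P4ha3, Lox and Loxl1) under each scaling and without BMP2+RSPO2 replicate 1.

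The effect of BMP2 averaged over both RSPO2 states called 5 members, where 22.0% of all genes were called, 4.45% higher and 17.6% lower. Lox rose (log2 change 0.62, SE 0.13, limma adjusted p = 0.00662), and P4ha3 (-0.98, SE 0.12, limma adjusted p = 0.000304), Loxl1 (-1.01, SE 0.21, limma adjusted p = 0.00718), P4ha2 (-0.71, SE 0.21, limma adjusted p = 0.0323) and Plod1 (-0.56, SE 0.17, limma adjusted p = 0.0378) fell. P4ha3, Lox and Loxl1 were called under both scalings and without each library in turn, whereas P4ha2 and Plod1 were not. These comparisons share libraries, so their values for a member are not independent.

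Groups did not overlap for 5 of the 9 members in BMP2+RSPO2 against Control, beside 44.0% of all genes, and for 5 in BMP2+RSPO2 against RSPO2, beside 42.3%. The counts were 4 in BMP2+RSPO2 against BMP2, beside 33.6%, 4 in BMP2 against Control, beside 20.8%, and 1 (Loxl1) in RSPO2 against Control, beside 9.33%. On the deposited values, none of these counts stands far from the share of all genes except that in BMP2 against Control, which holds P4ha2, P4ha3, Plod1 and Lox. In that comparison limma called 0 of the members. After median-of-ratios scaling, only P4ha3 of these 4 still kept BMP2 and Control apart. Shares of all genes without overlap were not counted on that scale.

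Scaling of the libraries bears on all of these values. As deposited, the median log2 change of all 11548 genes was -0.26 in BMP2+RSPO2 against Control, and after median-of-ratios scaling it was -0.03. It was -0.26 and -0.02 against RSPO2, -0.19 and -0.02 against BMP2, -0.16 and -0.01 for the averaged effect of BMP2, and -0.21 and -0.02 for the interaction. Of the called genes, 15.9% were higher in BMP2+RSPO2 against Control as deposited and 49.3% after scaling. The split moved likewise against RSPO2 (16.6% and 48.3%), against BMP2 (14.6% and 52.2%), for the averaged effect of BMP2 (20.2% and 48.1%) and in BMP2 against Control (33.7% and 43.9%). Relative to the median of all genes, the deposited change of Lox in BMP2+RSPO2 against Control is therefore larger, and those of P4ha3 and Loxl1 smaller, than the log2 changes given above.

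**Figure D3:**
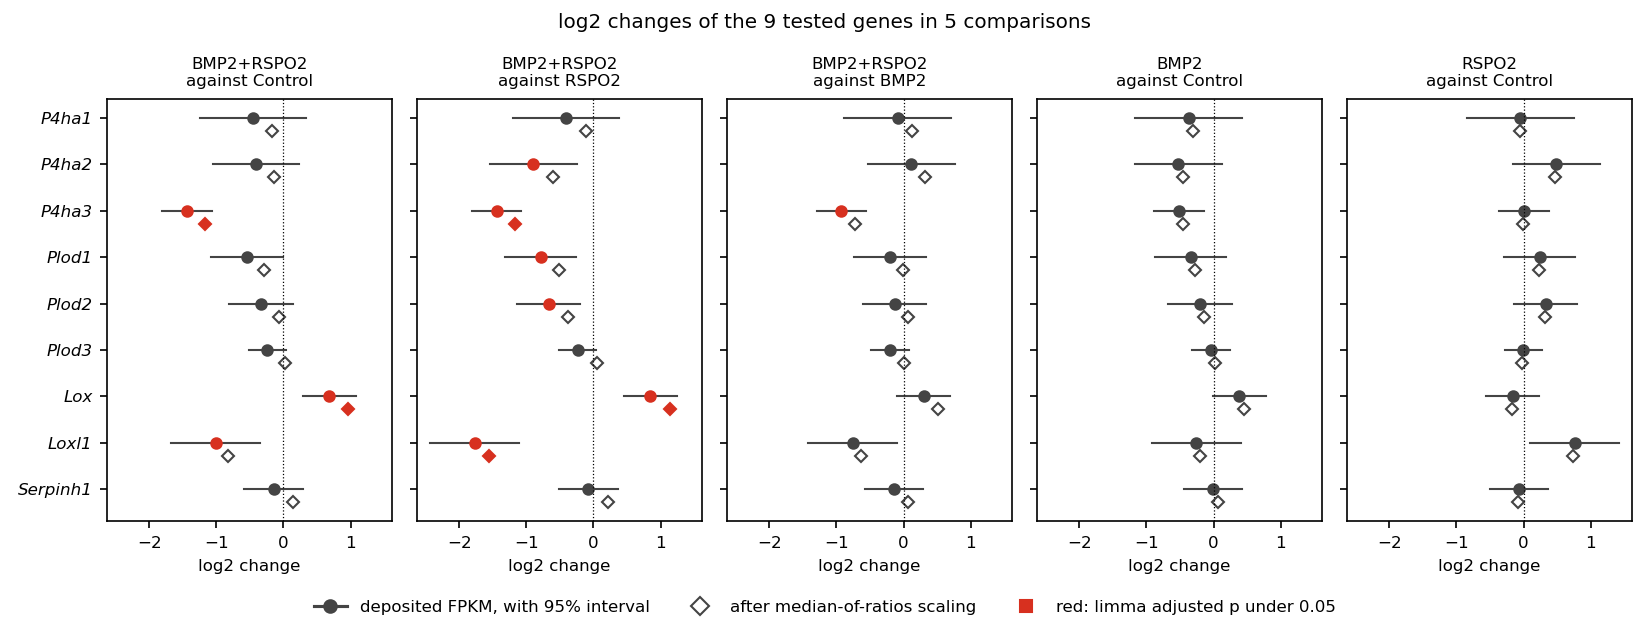
Log2 changes (horizontal axis) of the 9 tested genes in 5 comparisons, from the deposited FPKM (circles with 95% intervals) and after median-of-ratios scaling (diamonds), with calls at an adjusted p under 0.05 in red. P4ha3 and Lox are called by both in BMP2+RSPO2 against Control, and P4ha3, Lox and Loxl1 by both against RSPO2.

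Within each arm, P4ha1, P4ha2, Plod1 and Plod2 had their lowest value in the same library. These 4 of the 9 tested members were grouped by that trait after their values were seen, and no test was made. All 4 were lowest of their arm in BMP2+RSPO2 replicate 1, BMP2 replicate 1, RSPO2 replicate 2 and Control replicate 2. For Plod1 in BMP2 the margin was small, with 9.52 FPKM in replicate 1 and 9.64 FPKM in replicate 3. The deviation of P4ha1 from the mean of its arm on the log2 scale was -0.77 in BMP2+RSPO2 replicate 1, -0.27 in BMP2 replicate 1, -0.62 in RSPO2 replicate 2 and -0.40 in Control replicate 2. The median of the 13 tested hypoxia-inducible genes, a list without any of the 10 genes, was also lowest of its arm in these 4 libraries, with deviations of -0.47, -0.22, -0.78 and -0.46 in the same order. In BMP2+RSPO2 replicate 1 and BMP2 replicate 1 low values were not particular to these 4 genes, since 8 and 7 of the 9 tested members were lowest there. In RSPO2 replicate 2 and Control replicate 2 the 4 were the only members at their lowest, while Plod3 (0.07 and 0.12) and Serpinh1 (0.18 and 0.16) lay above the means of their arms. The deviations of P4ha3 in the 4 libraries were 0.40, 0.04, -0.01 and 0.08. Outside these libraries the 4 genes did not always share a sign, as in RSPO2 replicate 3, with 0.42 for P4ha1 and -0.04 for Plod2. The part of the hypoxia-inducible genes in the members' values was not tested.

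**Figure D4:**
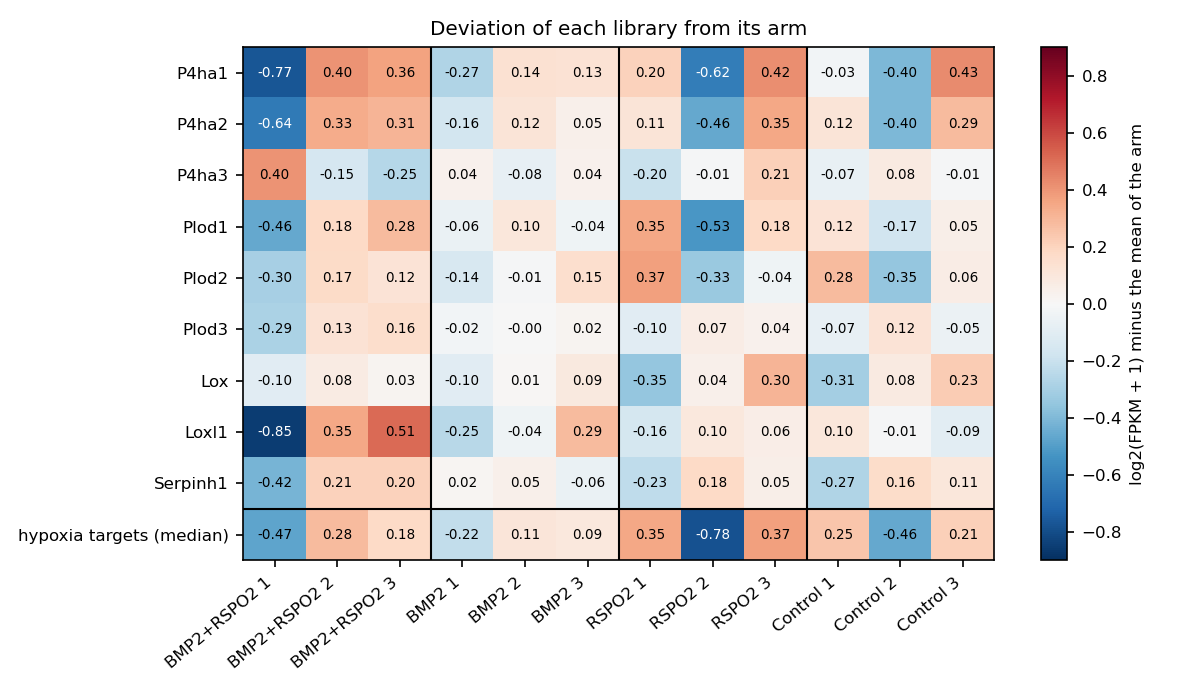
Difference of log2(FPKM + 1) in each of the 12 libraries (columns) from the mean of its arm for the 9 tested genes, and for the median of the hypoxia-inducible list (bottom row). P4ha1, P4ha2, Plod1 and Plod2, grouped after their values were seen, are lowest of their arm in the same libraries as the hypoxia-inducible list. Most other members are also low in BMP2+RSPO2 replicate 1, and P4ha3 is high in BMP2+RSPO2 replicate 1.

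The hypoxia-inducible list itself had a median log2 change of -1.10 in BMP2+RSPO2 against Control, where the median of all genes was -0.26. There 4 of its 13 tested genes fell, among them Slc2a1, which encodes a glucose transporter, Ldha and Ndrg1, and 0 rose. After median-of-ratios scaling the median was -0.91, with 0 falls and 1 rise, and without BMP2+RSPO2 replicate 1 it was -0.98, with 1 fall and 1 rise. In BMP2+RSPO2 against RSPO2, 8 fell, and after median-of-ratios scaling 3 fell and 1 rose. The glycolytic enzyme gene Aldoa averaged 99.2 ± 23.3 FPKM in BMP2+RSPO2, 126 ± 24.7 in BMP2, 255 ± 81.5 in RSPO2 and 229 ± 63.9 in Control, and fell with BMP2 averaged over RSPO2 states (log2 change -1.08, SE 0.21, limma adjusted p = 0.00502). Ndrg1 fell in the same comparison (-0.85, SE 0.18, limma adjusted p = 0.00807). Slc2a1 (-1.44, SE 0.30, limma adjusted p = 0.00663) and the mitophagy gene Bnip3 (-2.20, SE 0.62, limma adjusted p = 0.0260) fell in BMP2+RSPO2 against RSPO2, the call of Bnip3 ending under both scalings. In RSPO2 against Control 0 of the 13 were called, with a median of 0.21.

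Other genes that modify or fold collagen in the endoplasmic reticulum moved in both directions. Of 11 tested, 1 rose and 1 fell in BMP2+RSPO2 against Control, with a median log2 change of -0.06 that turned to 0.22 after median-of-ratios scaling (4 rises and 1 fall) and to 0.11 without BMP2+RSPO2 replicate 1 (3 rises and 1 fall). Creb3l1, a transcription factor of the secretory pathway that osteoblasts need for type I collagen, averaged 457 ± 16.3 FPKM in BMP2+RSPO2, 233 ± 8.52 in BMP2, 172 ± 41.3 in RSPO2 and 171 ± 38.9 in Control. It rose in BMP2+RSPO2 against Control (log2 change 1.44, SE 0.20, limma adjusted p = 0.00114), under both scalings too. Ppib, a prolyl isomerase that works with prolyl 3-hydroxylase, fell in the same comparison (-0.74, SE 0.17, limma adjusted p = 0.0110), a call lost after quantile normalization (0.133). In BMP2+RSPO2 against RSPO2, P3h1, a prolyl 3-hydroxylase, rose (0.44, SE 0.13, limma adjusted p = 0.0335), with 43.2 ± 8.05 FPKM in BMP2+RSPO2 and 31.2 ± 1.08 in RSPO2. P4hb, the β subunit shared by the prolyl 4-hydroxylases, fell there (-0.46, SE 0.14, limma adjusted p = 0.0393), with 417 ± 46.4 FPKM in BMP2+RSPO2 and 577 ± 93.7 in RSPO2, and lost its call under both scalings.

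The fibrillar collagens, the substrates of these enzymes, held 5 rises and 3 falls among 11 tested genes in BMP2+RSPO2 against Control, with a median log2 change of 0.37. That median was 0.66 after median-of-ratios scaling (6 rises and 2 falls) and 0.50 without BMP2+RSPO2 replicate 1 (6 rises and 4 falls). Col1a1, the main bone collagen and a gene named here after its values were seen, had 11887 ± 1146 FPKM in BMP2+RSPO2, 7915 ± 1197 in BMP2, 5141 ± 1240 in RSPO2 and 5581 ± 1359 in Control, and rose in BMP2+RSPO2 against Control (log2 change 1.12, SE 0.24, limma adjusted p = 0.00961). Col3a1, a collagen of soft tissue, had 116 ± 16.8 FPKM in BMP2+RSPO2, 367 ± 97.2 in BMP2, 752 ± 25.6 in RSPO2 and 758 ± 17.8 in Control, and fell (-2.70, SE 0.19, limma adjusted p = 2.85e-05). Col27a1 fell as well (-1.14, SE 0.15, limma adjusted p = 0.000887). With BMP2 averaged over RSPO2 states, the osteoblast collagen gene Col24a1 (1.97, SE 0.16, limma adjusted p = 2.82e-05) and the cartilage collagen gene Col2a1 (2.56, SE 0.29, limma adjusted p = 0.000219) rose.

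Eln, which encodes elastin, the elastic fibre substrate of lysyl oxidases, was listed at 0 in all 3 BMP2+RSPO2 libraries, at 0 to 0.04 FPKM in BMP2, 0.07 to 0.21 in RSPO2 and 0.11 to 0.16 in Control, and was not tested. The other elastic fibre genes, which encode fibrillins, fibulins, Mfap5 and Emilin1, fell in 4 of 6 tested cases in BMP2+RSPO2 against Control and rose in 0, with a median log2 change of -2.04, and of -1.82 after median-of-ratios scaling. Fbn1, which encodes fibrillin-1, averaged 0.867 ± 0.265 FPKM in BMP2+RSPO2, 1.06 ± 0.104 in BMP2, 17.8 ± 1.15 in RSPO2 and 9.10 ± 1.41 in Control, and fell with BMP2 averaged over RSPO2 states (-2.81, SE 0.10, limma adjusted p = 8.86e-08). Fbn2 fell likewise (-2.54, SE 0.16, limma adjusted p = 5.98e-06). Fbln5, which encodes fibulin-5, a protein that brings Loxl1 to elastic fibres, averaged 2.64 ± 0.729 FPKM in BMP2+RSPO2, 6.22 ± 0.0854 in BMP2, 19.5 ± 2.22 in RSPO2 and 13.6 ± 2.03 in Control, and fell in BMP2+RSPO2 against RSPO2 (-2.51, SE 0.16, limma adjusted p = 7.57e-06). The microfibril gene Mfap5 fell in BMP2+RSPO2 against Control (-2.08, SE 0.25, limma adjusted p = 0.000498).

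Among 10 tested genes of extracellular processing and other crosslinking, 2 rose and 3 fell in BMP2+RSPO2 against Control, with a median log2 change of 0.32. That median was 0.57 after median-of-ratios scaling (3 rises and 2 falls) and 0.58 without BMP2+RSPO2 replicate 1 (4 rises and 3 falls). Postn, which encodes periostin, a matrix protein that helps activate Lox, had 79.4 ± 8.34 FPKM in BMP2+RSPO2, 177 ± 10.4 in BMP2, 124 ± 7.33 in RSPO2 and 180 ± 3.83 in Control, and fell (log2 change -1.17, SE 0.10, limma adjusted p = 9.25e-05). Fmod, which encodes fibromodulin, a small proteoglycan that modulates collagen crosslinking, fell too (-1.37, SE 0.18, limma adjusted p = 0.000745). Bmp1, the protease that removes the procollagen C-propeptide and activates the Lox precursor, had 61.4 ± 14.4 FPKM in BMP2+RSPO2, 49.4 ± 5.21 in BMP2, 32.3 ± 1.92 in RSPO2 and 33.0 ± 0.715 in Control. It rose with BMP2 averaged over RSPO2 states (0.72, SE 0.11, limma adjusted p = 0.00156). Pcolce, an enhancer of that protease, fell in BMP2+RSPO2 against BMP2 (-0.58, SE 0.12, limma adjusted p = 0.0282), a call lost under both scalings.

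**Figure D5:**
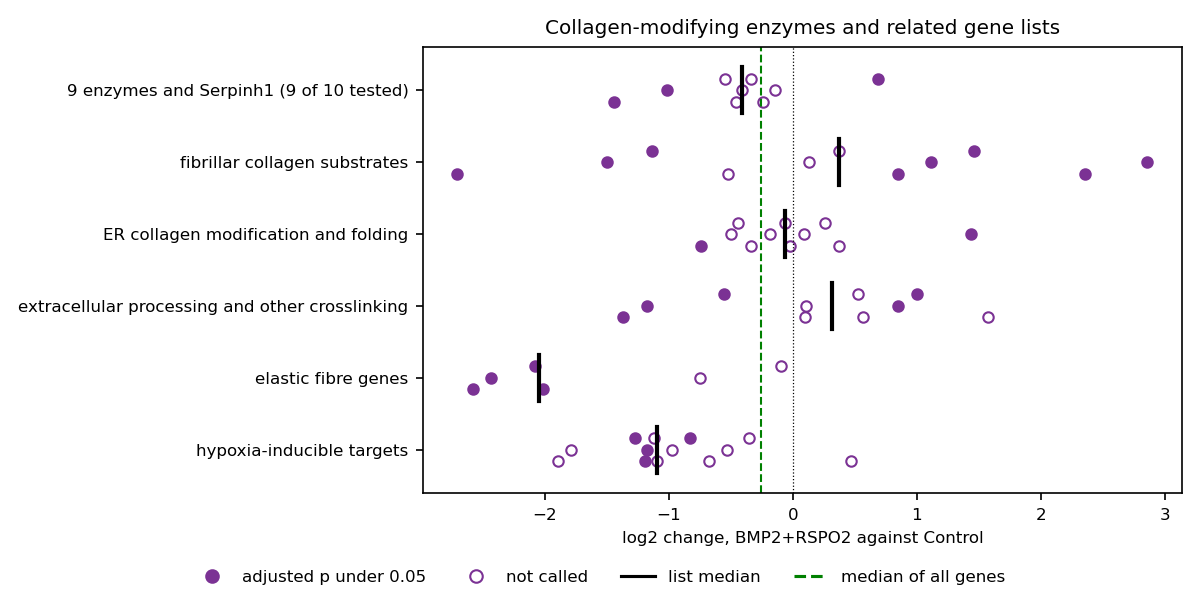
Log2 changes in BMP2+RSPO2 against Control (horizontal axis) of the 9 tested genes and of 5 related lists, 1 circle per gene, filled where called, with the median of each list (black line) and of all tested genes (dashed line). The elastic fibre and hypoxia-inducible lists lie lowest, with medians of -2.04 and -1.10.

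The remaining lysyl oxidase genes, Loxl3 and Loxl4, are not among the 10 and are named after their values were seen. Loxl3 averaged 20.9 ± 2.56 FPKM in BMP2+RSPO2, 21.1 ± 0.528 in BMP2, 20.1 ± 2.13 in RSPO2 and 19.5 ± 0.830 in Control. Loxl4 averaged 88.3 ± 56.0 FPKM in BMP2+RSPO2, 45.0 ± 8.65 in BMP2, 19.5 ± 5.73 in RSPO2 and 24.1 ± 7.48 in Control, and rose in BMP2+RSPO2 against RSPO2 (log2 change 1.85, SE 0.53, limma adjusted p = 0.0272), although its libraries spanned 24.7 to 130.1 FPKM in BMP2+RSPO2 and 14.6 to 25.8 FPKM in RSPO2. Per transcript length, both stood above Loxl1 in every arm mean.

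Loxl1 had the widest range of arm means among the 10 genes, 1.77 on the log2 scale. The 5 tested genes whose centred profiles over the 12 libraries were nearest to its own were Pros1 (root mean square difference 0.236 on the log2 scale), Cables1 (0.254), Ddah2 (0.261), Parp10 (0.267) and Gsdmd (0.276). Pros1, which encodes protein S of blood coagulation, averaged 18.4 ± 7.45 FPKM in BMP2+RSPO2, 26.3 ± 3.64 in BMP2, 42.0 ± 4.13 in RSPO2 and 34.2 ± 1.52 in Control, the same order of arms as Loxl1. This likeness is a description over 12 libraries that include BMP2+RSPO2 replicate 1, and carries no test.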

How the data were processed

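RNA of 12 libraries was sequenced from stranded poly(A)-selected libraries. Per the submitters' processing notes, cutadapt 1.10, FastQC 0.10.1, HISAT2 2.0, StringTie 1.3.4 and edgeR (no version or role given) were used, with GRCm38 and mm10 as builds. The authors deposited FPKM values for each gene in each library, with 2 decimals. The gene identifiers are those of the C57BL/6NJ strain annotation, so no gene coordinates were taken from the table, and promoter windows come from RefSeq by symbol. The authors also deposited a p-value and a q-value per gene without the groups compared, which were not used here. The table holds no counts, and low FPKM values showed no steps of whole reads (the fullest bin of the log ratio held 2.08% to 4.32% of genes over 66 library pairs), so depth is unknown and no counting interval is given. None of the 66 pairs of libraries held identical values.

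The log2(FPKM + 1) values of genes that reached 1 FPKM in 3 or more libraries went into limma 3.58.1 (R 4.3.3), fitted with a variance trend, 8 residual and 2.50 prior degrees of freedom. The 4 arms entered 1 fit, with two-sided tests, and the Benjamini-Hochberg adjustment ran over 11548 genes within each of 7 comparisons, and a call is an adjusted p under 0.05. The pseudocount understates changes of low genes such as Loxl1. Alternatives were a pseudocount of 0.1, no filter, quantile normalization, median-of-ratios scaling, a replicate block, replicates 2 and 3 only, the 2 arms of a comparison alone, and each library left out.

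The members and lists were chosen with earlier results of these data known. All members were named. From each related list, up to 4 called genes with the smallest p were named, each with the comparison in which its p is smallest, and the 5 genes nearest to the member with the widest range of arm means. List entries not matched in the table, such as Vegfa and Pgk1, were not analysed here.

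Replicate numbers come from the sample titles, which do not say what a number shares. Deviations of same-numbered libraries from their arm means correlated over genes (across genes, which are not independent) at 0.31 to 0.63 in RSPO2 against Control, 0.20 to 0.37 in BMP2+RSPO2 against Control and 0.16 to 0.36 in BMP2+RSPO2 against BMP2. For replicates 1, 2 and 3 in order, the correlations were 0.48, 0.25 and 0.079 in BMP2 against Control. In BMP2+RSPO2 against RSPO2 they were 0.16, 0.35 and -0.12. In these comparisons some pairs exceeded 0.1 and others did not. The main fit did not pair libraries by number in any comparison, and the replicate block was run only as an alternative.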

Additional observations from a re-analysis of the deposited data

Results flagged for a closer look

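The values of Loxl1 with RSPO2 lay in opposite directions with and without BMP2. In the presence of BMP2, Loxl1 averaged 2.23 ± 1.38 FPKM in BMP2+RSPO2 and 4.10 ± 0.966 FPKM in BMP2, and in its absence 9.22 ± 0.952 FPKM in RSPO2 and 5.02 ± 0.407 FPKM in Control (SD, n = 3 each). All 3 libraries of BMP2+RSPO2 lay below all 3 of BMP2, by 0.01 FPKM for the nearest pair, and all 3 of RSPO2 lay above all 3 of Control. After median-of-ratios scaling, BMP2+RSPO2 and BMP2 overlapped. Neither effect of RSPO2 was called. With BMP2 it was -0.76 (SE 0.30, limma adjusted p = 0.149), and -1.01 to -0.33 without 1 library. Without BMP2 it was 0.76 (SE 0.30). The difference between both effects was -1.52 on the log2 scale, and its own test, the interaction term of limma, gave an adjusted p of 0.183 over 11548 genes, which did not pass. The value was -1.09 without BMP2+RSPO2 replicate 1, where it passed (limma adjusted p = 0.0419), and -1.37 after median-of-ratios scaling (limma adjusted p = 0.308).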

How the results depend on the processing

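The fall of P4ha3 and the rise of Lox with BMP2 averaged over RSPO2 states, and in BMP2+RSPO2 against RSPO2, and the falls of Loxl1 in both, were called under every alternative run, and the fall of P4ha3 in BMP2+RSPO2 against Control likewise. With the replicate block the counts of called members were 3 in BMP2+RSPO2 against Control, 1 against BMP2, 6 against RSPO2, 5 for the averaged effect and 0 for the other 3 comparisons, and no call of a member changed.

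The count of called members moved under the following settings. In BMP2+RSPO2 against Control it was 2 (P4ha3 and Lox) with a pseudocount of 0.1, without the filter, after either scaling, or with median-of-ratios scaling and replicates 2 and 3. It was 1 (P4ha3) with only the 2 arms compared, and 1 to 3 without 1 library (1 without Control replicate 1). In BMP2+RSPO2 against BMP2 it was 0 after quantile normalization, median-of-ratios scaling or with only the 2 arms compared, and 2 from replicates 2 and 3 alone, scaled by median of ratios or not. Without 1 library it was 0 to 1. In BMP2+RSPO2 against RSPO2 it was 3 without the filter, after either scaling, with only the 2 arms compared or from replicates 2 and 3, 4 (Serpinh1 added) with median-of-ratios scaling and replicates 2 and 3, and 3 to 6 without 1 library. For the averaged effect of BMP2 it was 3 without the filter, after either scaling or from replicates 2 and 3 (scaled or not), and 3 to 6 without 1 library. For the interaction it was 2 (P4ha3 and Loxl1) from replicates 2 and 3, scaled or not, and 0 to 2 without 1 library, the 2 being without BMP2+RSPO2 replicate 1. In BMP2 against Control it was 1 (P4ha3) from replicates 2 and 3, scaled or not, and 0 to 1 without 1 library. In RSPO2 against Control it was 1 (Loxl1, higher) from replicates 2 and 3, scaled or not, and 0 without each library in turn. The combination of median-of-ratios scaling with replicates 2 and 3 was chosen after seeing the data. A fit of the 2 arms alone cannot be formed for the interaction and the averaged effect.

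Over all genes tested, counts of called genes also moved by more than 1.5 times. There were 2656 called genes in BMP2+RSPO2 against Control, and 1626 after quantile normalization, 1692 after median-of-ratios scaling, 1172 with only the 2 arms compared and 3994 from replicates 2 and 3. Against RSPO2, 3015 were called, and 1825, 1849 and 1237 under the first 3 of these settings. Against BMP2, 506 were called, and the alternatives ranged over 35 (only the 2 arms) to 2512 (replicates 2 and 3), with 306 without the filter, 261 after quantile normalization, 276 after median-of-ratios scaling and 1710 with the replicate block. The averaged effect called 2543, and 4224 from replicates 2 and 3. BMP2 against Control called 175, with 329 under the block and 963 from replicates 2 and 3, RSPO2 against Control 9, with 26 and 195, and the interaction 34, with 91 and 1109. Other settings lowered the last 2 counts. The interaction called 12 genes after quantile normalization and 4 after median-of-ratios scaling. RSPO2 against Control called 5 after quantile normalization, and 0 with a pseudocount of 0.1 or with only the 2 arms compared. Without 1 library the counts ran over 1595 to 2758, 1847 to 3058, 60 to 709, 1771 to 3214, 65 to 403, 0 to 21 and 0 to 187 in the order of these comparisons.

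Changes of sign occurred among uncalled members in BMP2+RSPO2 against Control. Plod3 was at 0.0166 after quantile normalization, 0.0285 after median-of-ratios scaling and 0.0603 with that scaling and replicates 2 and 3. Serpinh1 was at 0.14, 0.14 and 0.13 in the same order and at -0.280 to 0.0619 without 1 library, the highest being without BMP2+RSPO2 replicate 1. P4ha1 (0.11), P4ha2 (0.17) and Plod2 (0.15) turned with that scaling and replicates 2 and 3. Signs of uncalled members also changed in other comparisons. After median-of-ratios scaling, BMP2+RSPO2 against BMP2 was positive for 6 of the 9 tested members, and for 2 as deposited. There P4ha1 turned from -0.09 to 0.12, Plod2 from -0.13 to 0.07, Plod3 from -0.20 to 0.003 and Serpinh1 from -0.14 to 0.07. Plod3 and Serpinh1 also turned against RSPO2, in BMP2 against Control, for the averaged effect of BMP2 and for the interaction. The cause of these moves was not tested. Depth is unknown, so precision rests on 3 libraries per arm, and values under 1 FPKM such as those of Loxl2 carry no stated limit.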
